A study of Mus musculus with 4 samples.

Results

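The 8 genes described here, Defa17, Defa24, Defa30, Lyz1, Itln1, Ang4, Mptx1 and Mptx2, encode secreted antimicrobial proteins that are known as products of Paneth cells. They were taken by symbol from the 32286 features counted in every library, and each symbol matched 1 feature. Paneth cells sit at the base of the small intestinal crypts, between the stem cells, and release granules of these proteins into the crypt lumen. Their α-defensins (the Defa genes, also called cryptdins) disrupt bacterial membranes once the protease encoded by Mmp7 has cut them to the active form. Paneth cells share a secretory progenitor with goblet cells, which make mucus.

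The genes were measured by single-cell RNA sequencing of the distal jejunum in 4 adult mice, all treated with tamoxifen and all sampled 18.5 h after small intestinal ischemia-reperfusion (I/R) injury. The 2 Control mice were Foxc1fl/fl;Foxc2fl/fl, and the 2 EC-Foxc-DKO mice were Cdh5-CreERT2;Foxc1fl/fl;Foxc2fl/fl, so that both groups carried the floxed alleles and only the second group carried the recombinase. Cdh5-CreERT2 recombines in the endothelial cells of blood and lymphatic vessels, which are not the cells known to express the 8 genes. No uninjured mouse was analysed here, so every level is a level after injury. Each mouse was 1 library, and the mice are called Control 1, Control 2, DKO 1 and DKO 2 after their replicate numbers.

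The libraries held 6623, 3623, 7347 and 5086 barcodes, of which 1446, 348, 2742 and 1079 had 10% or less of their counts on mitochondrial genes and were kept as cells, 5615 of 22679 in all. The median number of unique molecular identifiers (UMIs, 1 per captured mRNA molecule) per kept cell was 14740, 6486, 4255 and 19871 in Control 1, Control 2, DKO 1 and DKO 2. Control 2 was the smallest library on every one of these measures except depth per cell. In the endothelial cells Foxc1 had 2, 9, 1 and 0 UMIs, Foxc2 had none in any mouse, and the Cre transcript had 0, 0, 3 and 2, too few for a test but in the direction of the labels. The libraries shared 51 barcode sequences with another library, 1 of them among the 89 barcodes richest in the 8 genes.

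Each library was a tag count from the 3′ end of the mRNA, so a level in CPM (UMIs of the gene for each 1000000 UMIs of the cells summed) does not grow with transcript length and can be compared between genes. It does depend on whether a read can be assigned to 1 gene. Defa17, Defa24 and Defa30 lie within the α-defensin cluster of chromosome 8, at chr8:21655780-21656735, chr8:21734494-21735471 and chr8:21134642-21135598 on the + strand of GRCm38, each with 2 exons. Their last 90 coding bases, which end in the stop codon, are printed here with those of Defa3 because they show how alike these genes are. Capitals mark the bases that differ from Defa17.

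Defa17, chr8:21656552-21656641, + strand, coding end: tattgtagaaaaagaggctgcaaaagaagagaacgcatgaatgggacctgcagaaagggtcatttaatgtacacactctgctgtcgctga
Defa3, chr8:21288194-21288283, + strand, coding end: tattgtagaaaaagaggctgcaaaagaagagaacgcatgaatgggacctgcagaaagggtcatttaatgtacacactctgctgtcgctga
Defa30, chr8:21135414-21135503, + strand, coding end: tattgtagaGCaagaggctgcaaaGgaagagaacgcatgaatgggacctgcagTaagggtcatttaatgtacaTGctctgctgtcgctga
Defa24, chr8:21735288-21735377, + strand, coding end: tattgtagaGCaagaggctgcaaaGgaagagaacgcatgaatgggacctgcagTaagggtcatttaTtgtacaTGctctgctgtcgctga

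The stretch was identical in Defa17 and Defa3, while Defa30 and Defa24 differed from Defa17 at 6 and 7 bases and from each other at 1 base. The libraries were read as 50-base reads. Over the whole transcripts, 320 of the 348 stretches of 50 bases in Defa17 (92.0%) also occurred in another annotated gene, as did 52.4% of those in Defa30 and 28.1% of those in Defa24, mostly in other α-defensin genes. The share was 16.1% in Lyz1, all of it shared with its macrophage paralog Lyz2, 4.70% in Ang4, 1.01% in Itln1, and 17.9% in Mptx1 and 18.0% in Mptx2, shared with each other. For the Mptx pair and Itln1 none of it lay in the last 300 stretches of the transcript. Within those last 300 stretches the share was 19.7% for Lyz1 and 10.3% for Ang4. Counts of the Defa genes are therefore uncertain, that of Defa17 most of all, and those of Lyz1 and Ang4 are so to a lesser degree. How the reads were assigned was not tested.

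Lyz1 lies at chr10:117287797-117292868 (− strand, 4 exons), Itln1 at chr1:171518122-171535294 (− strand, 2 transcripts of 3 to 8 exons), Ang4 at chr14:51763878-51773590 (− strand, 2 exons), Mptx1 at chr1:174330518-174332873 (+ strand, 2 exons) and Mptx2 at chr1:173274382-173277777 (− strand, 2 exons). The pair of mucosal pentraxin genes Mptx1 and Mptx2 turned out to differ in level, with 44 and 966 UMIs over all barcodes. The 150 bases before their RefSeq start sites on GRCm38.p6 are therefore shown. The RefSeq start of Mptx2 lies inside the coordinates given above, so its window overlaps that gene. Capitals mark ACAAAG or its reverse complement.

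Mptx1, chr1:174330368-174330517, + strand: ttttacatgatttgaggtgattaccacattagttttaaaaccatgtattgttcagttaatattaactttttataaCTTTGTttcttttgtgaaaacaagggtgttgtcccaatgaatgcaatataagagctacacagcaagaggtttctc
Mptx2, chr1:173277757-173277906, - strand: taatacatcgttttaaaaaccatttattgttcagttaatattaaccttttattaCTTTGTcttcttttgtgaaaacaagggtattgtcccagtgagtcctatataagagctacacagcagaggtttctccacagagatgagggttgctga

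Both promoters held 1 copy of ACAAAG, searched on both strands, as did those of Lyz1 and Ang4, so that 4 of the 6 members with an entry in the promoter table had it, against 9.88% of the 32851 promoters of the table over the same length. TATAAA, searched on the given strand, was found in 1 of the 6, Defa30, against 4.84% of all promoters. The 2 motifs have no overlap with each other, and a match is a description of these letters only. Defa17 and Defa24 have no entry in the table.

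The 8 genes were expressed very unequally. Defa24 had 38467 UMIs over all barcodes, followed by 8464 for Defa30, 7561 for Lyz1 (lysozyme, which cleaves the bacterial cell wall), 4236 for Itln1 (intelectin-1, a lectin that binds microbial glycans), 1481 for Ang4 (a bactericidal ribonuclease), 966 for Mptx2, 786 for Defa17 and 44 for Mptx1. Together they took 0.00252%, 0.0872%, 0.00794% and 0.107% of all UMIs in Control 1, Control 2, DKO 1 and DKO 2. Each genotype thus had 1 low and 1 high mouse, and the ranges of the genotypes overlapped. Of all their UMIs, 49.1% were in kept cells and the rest in barcodes removed for their mitochondrial share.

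Among kept cells, 93.2% of the UMIs of the 8 genes were in a single cluster of 125 cells, or 89.2% ± 7.35 (SD, n = 4 mice) as a mean of the mice, which makes up 2.23% of kept cells. The cluster is called Goblet and Paneth cells after the marker genes that the study used for that cluster, all 10 of which were detected in it. Its leading genes by fold were Fcgbp, Zg16, Clca1, Muc2, Spink4, Defa24, Agr2, Tff3, Retnlb and Itln1. Most of these are genes of the goblet cell, so the data show a goblet cell cluster that also holds the cells richest in Paneth cell products, and none of the 10 marker genes is one of the 8 genes or another α-defensin. It held 32, 4, 48 and 41 cells in Control 1, Control 2, DKO 1 and DKO 2. Of the 8 genes 7 were among the 2923 genes used to cluster the cells, and when the cells were clustered without them and without every other Defa gene the cluster held 127 cells.

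In this cluster Defa24 was at 1030, 60515, 2486 and 14157 CPM in Control 1, Control 2, DKO 1 and DKO 2. Defa30 was at 88.2, 21905, 6.63 and 1758 CPM. For both genes Control 2 was highest, DKO 2 came next, and the ranges of the genotypes overlapped. Lyz1 was at 461, 15646, 143 and 1722 CPM, and Itln1 at 284, 10514, 47.8 and 1257 CPM, in the order of mice of Defa30.

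Ang4 and Defa17 had that order too, at lower levels. Ang4 was at 48.5, 1159, 5.31 and 576 CPM in Control 1, Control 2, DKO 1 and DKO 2, and Defa17 at 8.82, 861, 2.65 and 289 CPM. The Mptx genes, whose products are pentraxins of the mucosa, did not follow it. Mptx2 was at 68.3, 0, 0 and 418 CPM, and Mptx1 at 0, 0, 18.6 and 18.3 CPM. Control 2, the mouse with the highest level of each of the other 6 genes, had no UMI of either.

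**Figure D1:**
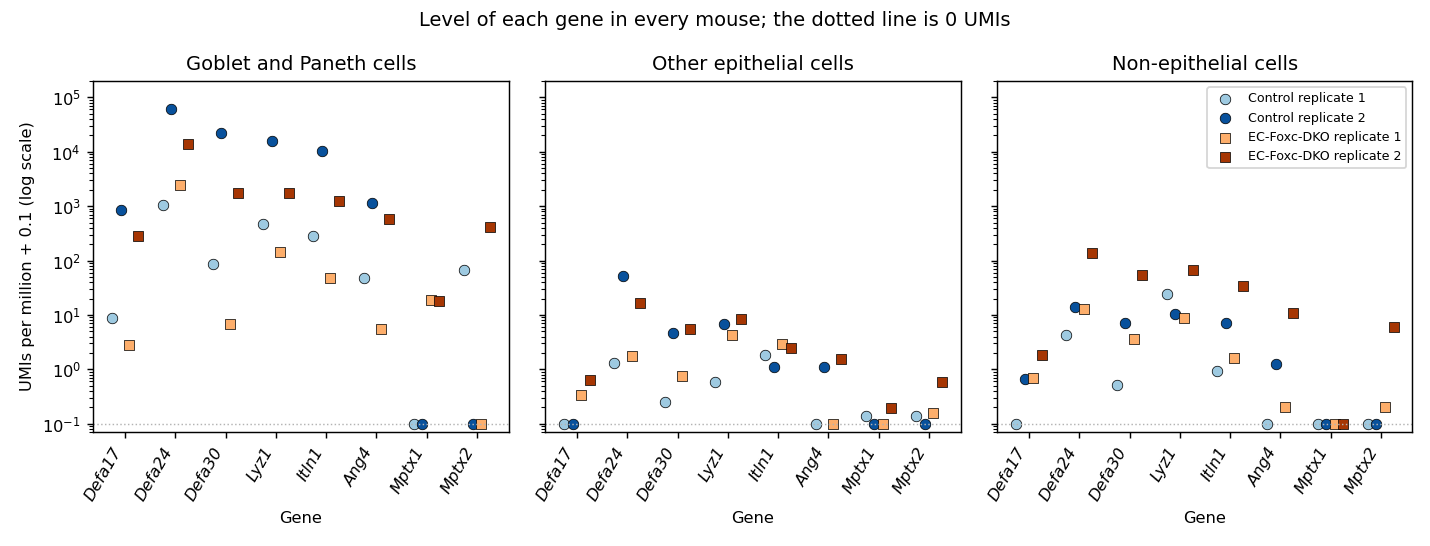
Level of each of the 8 genes in every mouse, in CPM plus 0.1 on a log scale, in Goblet and Paneth cells, in the other epithelial cells and in non-epithelial cells; circles are Control and squares EC-Foxc-DKO mice, and points on the dotted line are 0 UMIs. In Goblet and Paneth cells Defa24 spans 1030 to 60515 CPM, and the ranges of the 2 genotypes overlap for every gene but Mptx1.

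These levels rested on very few cells. A single cell held 35.8%, 93.3%, 52.1% and 33.0% of the cluster's UMIs of the 8 genes in Control 1, Control 2, DKO 1 and DKO 2. In Control 2, with 4 cells, 1 cell carried 3580 of the 3655 UMIs of Defa24 and all 1323 of Defa30, and without it Defa24 was at 1570 CPM and Defa30 at 0. Without the cell richest in Defa24, the level was 1140 CPM in place of 2486 in DKO 1 and 8431 CPM in place of 14157 in DKO 2. A sum of counts over a mouse cannot tell apart fewer cells that express a gene and less RNA per cell.

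The comparison of EC-Foxc-DKO with Control mice asks whether loss of endothelial Foxc1 and Foxc2 went with a different level of these epithelial genes after I/R. It was made on counts summed per mouse with edgeR's quasi-likelihood test, and p-values were adjusted by Benjamini-Hochberg over all genes tested. In Goblet and Paneth cells all 8 genes passed the filter on low counts and 0 were called at an adjusted p under 0.05. Over all 5358 genes tested the share called was 0% as well, with 13 genes at an unadjusted p under 0.05, and DESeq2 called 0 genes.

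The log2 changes in Goblet and Paneth cells carried large errors. That of Defa24 was −1.99 (SE 1.75), and those of Defa17 and Defa30 were −1.70 (SE 1.87) and −3.86 (SE 2.48). Lyz1 differed by −3.27 (SE 1.68) and Itln1 by −3.24 (SE 1.78), with an adjusted p of 1.00 for each of the 8 in edgeR's quasi-likelihood test. Ang4 differed by −1.22 (SE 1.69) and Mptx2 by 1.99 (SE 1.82). The median over the 8 genes was −1.85 against 0.04 over all genes tested. Without Control 2 every one of the 6 negative changes turned positive, to between 0.91 and 3.88, so their direction rested on that mouse. Without DKO 2 the changes of Defa17, Defa30 and Ang4 were −6.76, −10.25 and −6.32, and that of Mptx2 turned to −7.17.

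Mptx1 was the 1 member with an unadjusted p under 0.05 in this cluster (edgeR's quasi-likelihood test). It had 0 UMIs in the Control cells and 31 in the EC-Foxc-DKO cells, 14 in DKO 1 and 17 in DKO 2. It thus passed the filter on low counts only through the group in which it was high. That fixed the direction of its change in advance, so the unadjusted p is no support for a difference. For scale, 3 counts over the 514000 UMIs of both Control mice would be 5.84 CPM, and the EC-Foxc-DKO mice were at 18.4 CPM. In each of the EC-Foxc-DKO mice 1 cell held 8 of the UMIs. The limit of 3 counts covers counting error in the Control mice only, so no fold is drawn from it. No difference passed the adjusted test.

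Of a list of 20 Paneth cell genes other than the members 11 passed the filter on low counts in Goblet and Paneth cells, and 0 of them were called in either direction, with a median log2 change of −0.36. Mmp7 was the most abundant, at 212, 2550, 76.9 and 822 CPM in Control 1, Control 2, DKO 1 and DKO 2, in the same order of mice as Lyz1. Clps, which encodes colipase, was at 247, 1109, 479 and 136 CPM, with DKO 2 lowest, and Cd24a, which encodes a surface antigen, at 99.2, 265, 58.4 and 192 CPM, a narrower range than that of the members. Of 19 other α-defensin genes 10 passed the filter and 0 were called, with a median of −2.27. Goblet cell genes had a median of 0.30 with 15 of 16 tested and 0 called, and Muc2, the main mucin of the gut, was at 21484, 15497, 33683 and 6552 CPM, an order of mice unlike that of the 8 genes. Retnlb, which encodes an antimicrobial resistin-like protein of goblet cells, was at 858, 20580, 261 and 4978 CPM, the order of Lyz1, and Spink4 was at 5692, 42468, 5960 and 11938 CPM, the order of Defa24.

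The cluster held cells of different kinds, which could be told apart by genes other than the 8. In 8 of the 125 cells the UMIs on other α-defensin genes outnumbered those on a list of goblet cell genes, 1 cell in Control 1, 1 in Control 2, 0 in DKO 1 and 6 in DKO 2. In these cells the 8 genes took 31.1% of all UMIs, and Defa24 made up 56.8% of that. In the other 117 cells (31, 3, 48 and 35) goblet genes were ahead. They are called goblet cells below, but goblet genes took only 1.41% of the UMIs in 1 cell of Control 1 and 2.07% in 1 cell of DKO 2. The division uses counts of the same cells, and other α-defensins accompany the members in Paneth cells, so it is a description and was not tested.

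In the 8 cells rich in α-defensins the proportions of the genes varied by gene. Per 100 UMIs of Defa24 there were 18.0, 37.0 and 25.8 of Defa30 in Control 1, Control 2 and DKO 2, 100, 22.0 and 21.5 of Lyz1, and 17.2, 11.9 and 11.1 of Itln1. Lyz1 was thus high relative to Defa24 in the 1 cell of Control 1. Ang4 was at 10.9, 1.76 and 8.24 per 100 and Mptx2 at 3.91, 0 and 5.78.

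In the goblet cells Defa24 was often present with almost no other α-defensin. Of 117 such cells 57 had at least 1 UMI of Defa24, 24 had 10 or more and 8 had 100 or more, and together these cells carried 339, 75, 1874 and 6915 UMIs of Defa24 in Control 1, Control 2, DKO 1 and DKO 2, against 17, 0, 5 and 27 of Defa30. All 17 in Control 1 came from 1 cell in which the counts were almost tied, 20 on other α-defensins and 21 on goblet genes. In DKO 2 the cell with 2.07% of its UMIs on goblet genes held 14 of the 27. A cell of DKO 2 held 5635 UMIs of Defa24, 14.9% of its RNA, with 5 of Defa30, 4 of Lyz1, 308 of Itln1, 13 of other α-defensins and 10761 of goblet genes. A cell of DKO 1 held 1049 of Defa24 with 2 of Defa30 and 15766 of goblet genes.

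Over the goblet cells Defa30 came to 0.532 per 100 Defa24, against 29.7 in the 8 cells rich in α-defensins. In non-epithelial cells there were 143 UMIs of Defa30 to 399 of Defa24. These ratios pool the mice, and DKO 2 held most of the UMIs. In Control 1 there were 17 of Defa30 to 339 of Defa24 in goblet cells and 1 to 10 in non-epithelial cells. The source of Defa24 in goblet cells was not tested.

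The level of Defa24 in the goblet cells was 751, 1570, 2486 and 7797 CPM in Control 1, Control 2, DKO 1 and DKO 2. Both EC-Foxc-DKO mice were above both Control mice, unlike in the whole cluster. The log2 change was 2.21 and was not called (edgeR's quasi-likelihood test, adjusted p = 1.00), in a fit chosen after seeing the data. Without the richest cell of each mouse the levels were 551, 0, 1140 and 1507 CPM. With 2 mice in each group, 0.333 is the lowest p that an exact permutation test allows. Goblet cells with 10 or more UMIs of Defa24 had a median depth of 10891, 37422, 19591 and 21298 UMIs in Control 1, Control 2, DKO 1 and DKO 2, and those with none 3010, 5178, 11687 and 26729. Goblet genes took 22.1%, 22.7%, 39.0% and 18.7% of the summed UMIs of the former and 28.4%, 50.8%, 40.1% and 15% of those of the latter. Removing the cells with the highest doublet scores removed 0 of the 17 cells of this cluster in which the 8 genes took 1% or more of the UMIs, but whether goblet cells with much Defa24 were doublets cannot be settled from these counts. When the cluster was divided further, 25 of its 41 cells in DKO 2 fell into a subcluster led by Fkbp11, Hspe1 and Reg4, against 4 of 32 in Control 1, 1 of 4 in Control 2 and 3 of 48 in DKO 1, so the cells compared were not of the same make-up in each mouse.

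**Figure D2:**
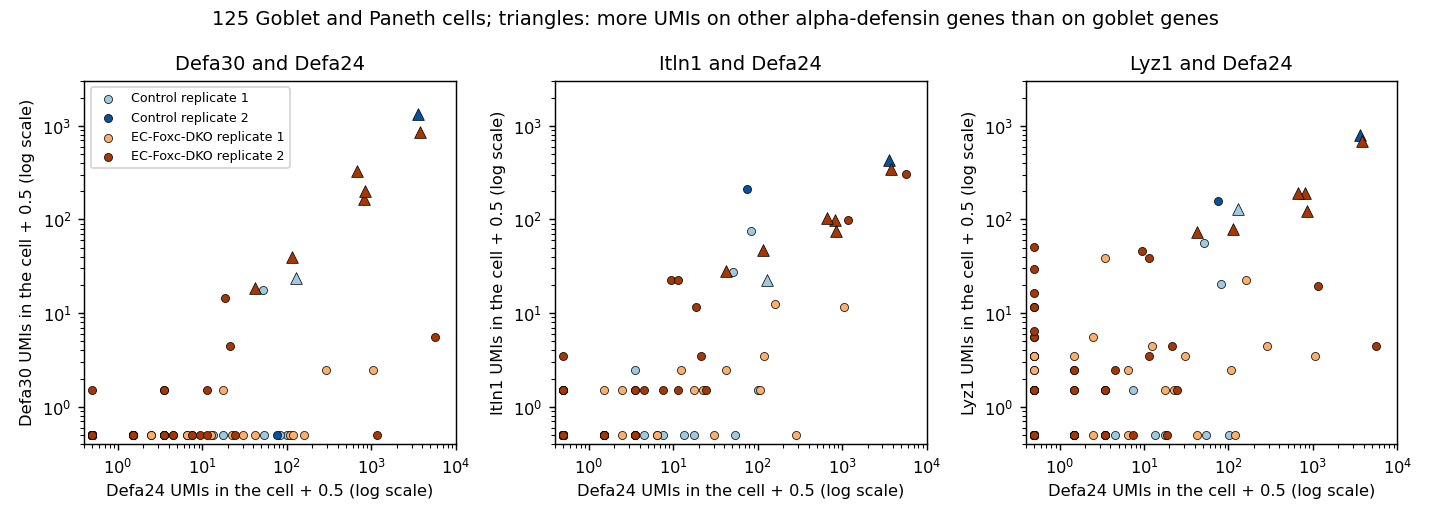
UMIs of Defa30, Itln1 and Lyz1 (vertical axes) against UMIs of Defa24 (horizontal axes) in each of the 125 Goblet and Paneth cells, both plus 0.5 on log scales and coloured by mouse; triangles are the 8 cells with more UMIs on other α-defensins than on goblet genes. The triangles lie along 1 diagonal with Defa30, while circles with up to 5635 UMIs of Defa24 have 5 or fewer of Defa30 in the lower right.

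Other members were found in the goblet cells too, at lower levels than Defa24 except in Control 2, where Lyz1 and Itln1 were above its 1570 CPM. Lyz1 was there at 179, 3286, 143 and 291 CPM in Control 1, Control 2, DKO 1 and DKO 2, against 24.0, 10.3, 8.54 and 67.0 CPM in non-epithelial cells, and 36 of the 117 cells had 2 or more UMIs. Itln1 was at 237, 4374, 47.8 and 533 CPM, against 0.827, 6.87, 1.49 and 34.7 CPM, with 2 or more UMIs in 16 cells. In Control 2 a single cell held all 157 UMIs of Lyz1 and all 209 of Itln1, with 107 UMIs of Mmp7. In Control 1 the cell with almost tied counts held 55 of the 81 UMIs of Lyz1. A cell held 308 of the 473 UMIs of Itln1 in DKO 2. In the 8 cells rich in α-defensins Lyz1 and Itln1 were at 40089 and 20284 CPM. Ang4 was at 19.2 CPM over all goblet cells against 10480 CPM in those 8. Mptx2 was mostly on the Paneth side, with 365 of its 419 UMIs of the cluster in those 8 cells. Of its 54 UMIs in goblet cells, 26 and 27 were in the cells with 1.41% and 2.07% of UMIs on goblet genes. Mptx1 had 30 of its 31 UMIs in 9 goblet cells and 1 in the 8 cells. The goblet cells held far more UMIs in all, and its level was 14.02 CPM in them and 17.76 CPM in the 8. With 1 UMI in the 8 cells, no preference for either group can be read from these counts.

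Likeness was also taken across cell types. Goblet and Paneth cells count as 1 type there, so it cannot show the division within that cluster. Over 63 sums of a cell type in a mouse with 10 or more cells, the genes that are no members with the highest Pearson correlation to Defa24, on log2(CPM + 1), were AY761184 (0.82), Gm14851 (0.76) and Defa22 (0.75). For Defa30 it was Gm14851 (0.83), for Ang4 and Itln1 AY761184 (0.83 and 0.79), for Lyz1 and Mptx2 Defa29 (0.71 and 0.78) and for Defa17 Defa22 (0.66). Mptx1, at a mean of only 0.636 CPM over these sums, was most like Fer1l6 (0.66), Slc12a8 and Agr2. Of these, Agr2 serves mucin folding in goblet cells. The sums share libraries and depth, and 1 cluster carries most of the range, so these values are a description with no test.

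Outside the cluster the levels were far lower. In Crypt cells, the cluster of stem and proliferating cells next to which Paneth cells lie, Defa24 was at 0, 83.6, 1.48 and 11.3 CPM in Control 1, Control 2, DKO 1 and DKO 2. In Control 2 a single one of 15 cells held 31 of the 43 UMIs, and without it the level was 24.6 CPM. Lyz1 in Crypt cells was at 0, 19.4, 21.1 and 4.86 CPM, and in DKO 1 a single cell held 36 of the 57 UMIs. Of the 3 members tested in Crypt cells (Defa24, Defa30 and Lyz1) 0 were called, among 9278 genes of which 0% were called, 230 at an unadjusted p under 0.05, and of which DESeq2 called 2.

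In Bottom enterocytes, the enterocytes nearest to the crypt, Defa24 was at 0.228, 6.15, 1.03 and 15.1 CPM in Control 1, Control 2, DKO 1 and DKO 2. At least 1 UMI of any of the 8 genes was found in 4.69%, 19.2%, 13.7% and 39.5% of these cells, and after thinning each cell to 1000 UMIs in 0.134%, 1.32%, 0.436% and 3.1%. In non-epithelial cells thinned in the same way the share was 2.11%, 5.09%, 1.86% and 11.2%, higher in each mouse. It includes the Lyz1 of macrophages, and in Control 1 Lyz1 made up 58 of the 71 UMIs of the 8 genes there. Median depth was 39147, 32933, 35293 and 23314 UMIs in Bottom enterocytes and 3664, 5862, 3546 and 4426 in non-epithelial cells. With depths this unlike, the thinned shares cannot place Bottom enterocytes above or below the background. The thinned share was 38.5%, 50.0%, 32.0% and 47.6% in Goblet and Paneth cells. In Crypt cells it was 0.0511%, 8.35%, 3.66% and 2.70%, above the non-epithelial cells in Control 2 and DKO 1. Among the Bottom enterocytes of DKO 2 no cell held more than 6 of the 134 UMIs of Defa24, so the counts were spread thinly over the cells. Defa24 was the 1 member tested in Bottom enterocytes, and 0 were called (log2 change 3.14, SE 1.59, adjusted p = 1.00 in edgeR's quasi-likelihood test). The share called was 0% of 9675 genes, with 291 at an unadjusted p under 0.05, and DESeq2 called 3 genes. Without DKO 1 the median log2 change of the 4 members then tested was 4.12.

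Non-epithelial cells, in which these genes other than Lyz1 are not known as products, set the background. Defa24 was there at 4.14, 13.7, 12.9 and 138 CPM in Control 1, Control 2, DKO 1 and DKO 2. In Follicular B cells, a type that should lack it, 37 of 1205 cells of DKO 1 had a UMI of Defa24 (3.07%, 95% exact Clopper-Pearson interval 2.17% to 4.21%) with a median depth of 3249 UMIs, and 4 of 34 cells of DKO 2 (11.8%) with a median depth of 2754. The level of DKO 2 leaned on a cell of the CD8+ T cell cluster with 204 UMIs of the 8 genes, 100 of them Defa24, without which Defa24 in that cluster was at 57.9 in place of 464 CPM. Removing likely doublets removed that cell.

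In the mouse with the highest background, DKO 2, the other epithelial cells were below the non-epithelial ones, at 16.8 against 138 CPM of Defa24. The former held 344 UMIs in 714 cells and the latter 235 in 314 cells, 100 of them in the 1 cell named above. Median depth in DKO 2 was 23314 UMIs in Bottom enterocytes and 4426 in non-epithelial cells. With depths this unlike, the lower CPM does not place the former below the background. In Control 2 the other epithelial cells were above, at 51.5 against 13.7 CPM, with 50 UMIs in 1 of 3 cells of the Tuft and M cell cluster and 43 in Crypt cells. Between genotypes 0 of the 4 members tested in non-epithelial cells were called, and 0% of 10807 genes, 388 of which had an unadjusted p under 0.05, while DESeq2 called 11. Defa24 had the lowest p of the 4, with a log2 change of 3.15 (SE 1.21, adjusted p = 0.978 in edgeR's quasi-likelihood test). Without DKO 2 the changes of Lyz1 and Itln1 there were −0.89 and −1.14 in place of 1.11 and 2.25.

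**Figure D3:**
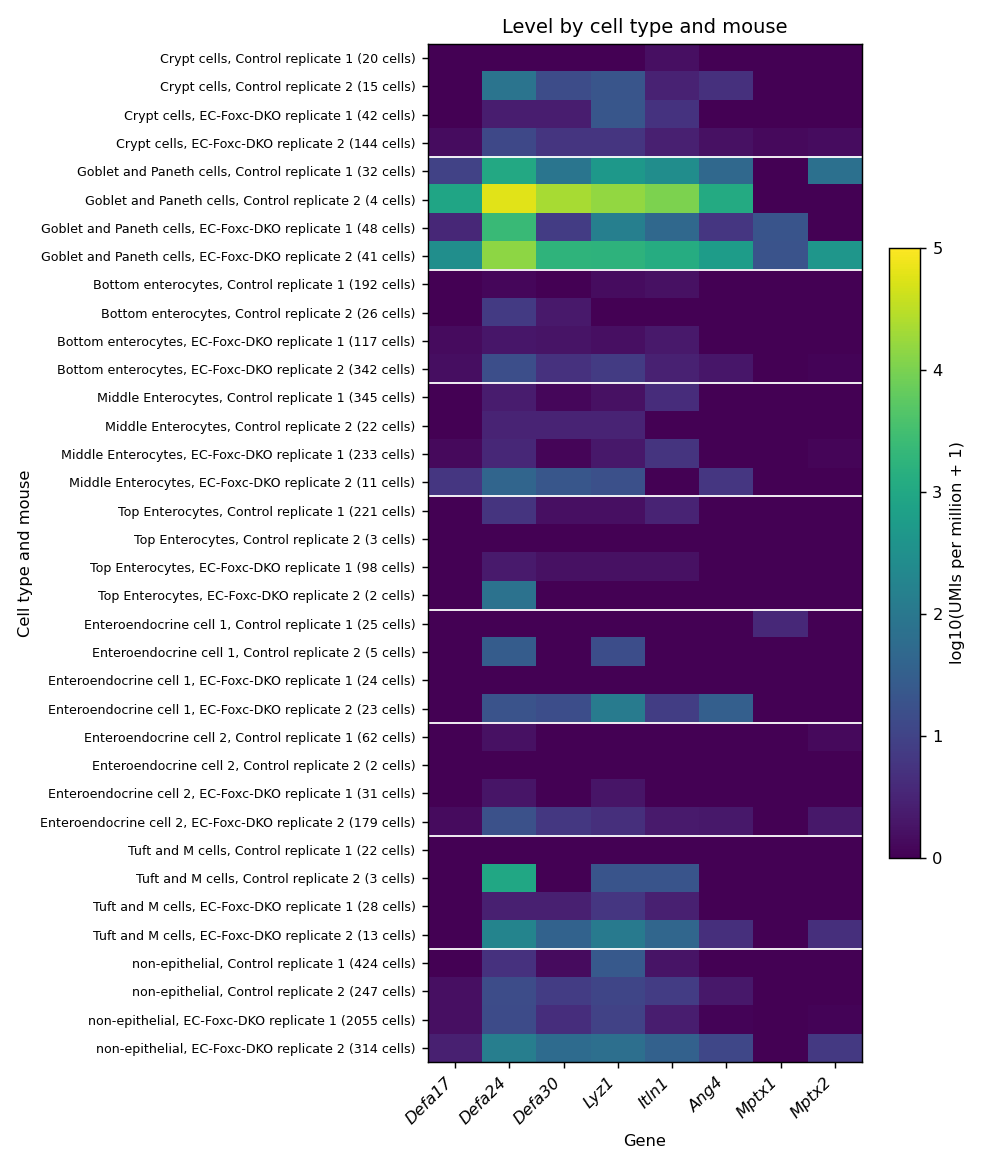
Level of each of the 8 genes, as log10 of CPM plus 1, in each epithelial cell type and in all non-epithelial cells, 1 row per mouse with its number of cells and 1 column per gene. The 4 rows of Goblet and Paneth cells are brightest, and rows outside it with a bright Defa24 cell, such as Tuft and M cells of Control 2 at 950 CPM, have few cells.

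Lyz1 was the exception among non-epithelial cells. In the Macrophage 3 cluster it was at 468, 0, 110 and 12.5 CPM in Control 1, Control 2, DKO 1 and DKO 2, found in 9 of 44 cells of Control 1 and in 10 of 88 of DKO 1, with 1 UMI of Defa24 in the whole cluster in each of these mice. Lyz2, the lysozyme gene of myeloid cells that shares part of its sequence with Lyz1, had 503 and 3228 UMIs there, while Macrophage 2 of DKO 1 had 11045 UMIs of Lyz2 and 4 of Lyz1. In Goblet and Paneth cells Lyz2 had 0, 0, 1 and 1 UMIs, against 209, 945, 108 and 1599 of Lyz1. In the Enteroendocrine cell 1 cluster of DKO 2 Lyz1 was at 121 CPM, from 34 UMIs in 6 of 23 cells, with 5 UMIs of Defa24.

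Over all epithelial cells all 8 members were tested and 0 were called, as were 0% of 12333 genes, of which 173 had an unadjusted p under 0.05 and DESeq2 called 6. The log2 change of Defa30 was −2.87 (SE 2.30), and Mptx1 had 1, 0, 14 and 19 UMIs in Control 1, Control 2, DKO 1 and DKO 2. Over all kept cells 0 of 8 members were called and 0% of 14916 genes, with 54 at an unadjusted p under 0.05 and 7 called by DESeq2. There Defa24 differed by −0.21 (SE 1.69).

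Whether the change in epithelial cells differed from that in non-epithelial cells was tested as an interaction term, with 2 sums for each mouse. Of 7 members tested 0 were called, and 0% of 13943 genes, 439 of them at an unadjusted p under 0.05, while DESeq2 called 1 gene. All 7 differences were negative, and 5 had an unadjusted p under 0.05. That of Defa30 was largest at −6.60 (SE 1.04, adjusted p = 0.264 in edgeR's quasi-likelihood test) and that of Itln1 next in p at −3.87 (SE 0.69, adjusted p = 0.337). Defa24 differed by −2.61 (SE 1.13), and without Control 2 by 0.25. Without Control 1, DKO 1 or DKO 2 the median difference of the members tested was −4.27, −3.55 and −3.51, and without Control 2 it was −2.30. The genes are measured in the same few cells of each mouse, so the 7 are not independent of each other.

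Because 49.1% of the UMIs of the 8 genes were in kept cells, the removed barcodes were examined too. In 89 of all 22679 barcodes the 8 genes took 5% or more of the UMIs, 3, 20, 3 and 63 in Control 1, Control 2, DKO 1 and DKO 2. Of these 12 were kept (2, 1, 0 and 9), 11 had 10 to 20% mitochondrial UMIs, 9 had 20 to 50% and 57 had more than 50%. Counts of other α-defensins exceeded those of goblet genes in 84 of the 89. These 84 barcodes held 65.6% of all UMIs of the 8 genes, at a median of 1013 UMIs and a median mitochondrial share of 68.8%. Only 9 of these 84 were kept.

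**Figure D4:**
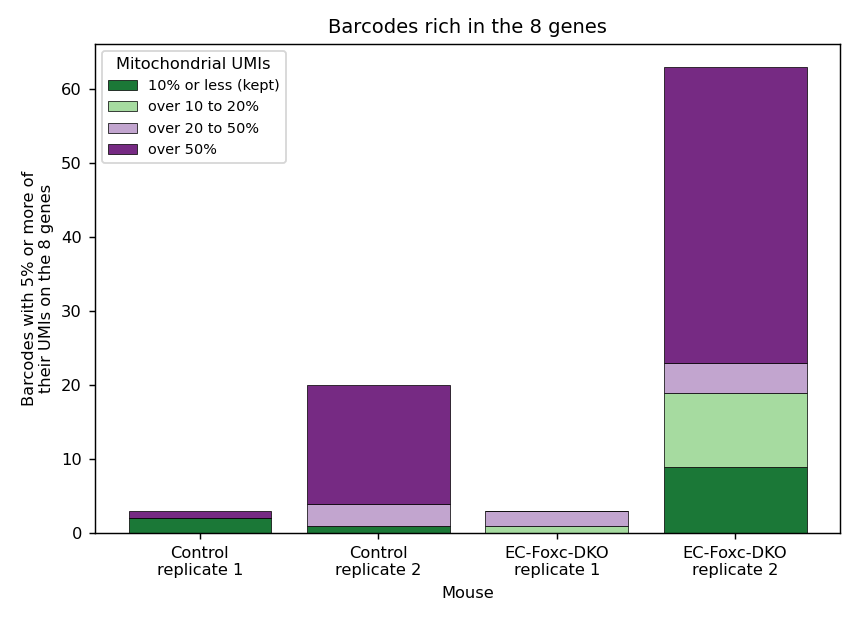
Number of barcodes per mouse in which the 8 genes took 5% or more of the UMIs, stacked by the share of mitochondrial UMIs; the bars start at 0. DKO 2 has 63 and Control 2 has 20, most of them over 50% mitochondrial, while the other mice have 3 each.

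With the limit set to 20% the cells rich in α-defensins formed a cluster of their own, with 20 cells (2, 1, 1 and 16 in Control 1, Control 2, DKO 1 and DKO 2) led by Defa22, Defa21 and Defa30, of which 9 were kept at 10%. The 8 genes took 28.9% of its UMIs. Every one of the 20 cells had a UMI of Defa24, Defa30, Lyz1, Itln1 and Ang4, 19 had one of Defa17, 15 of Mptx2 and 1 of Mptx1. Mptx2 was found in 12 of the 16 cells of DKO 2, in both cells of Control 1 and in the cell of DKO 1, and not in the cell of Control 2.

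The make-up of the 84 barcodes rich in α-defensins differed between mice more for some genes than for others. Defa30 came to 18.8, 35.4, 27.3 and 28.2 UMIs per 100 of Defa24 in Control 1, Control 2, DKO 1 and DKO 2, from 2, 19, 3 and 60 barcodes, and Itln1 to 15.6, 10.8, 12.3 and 10.5. Among single barcodes Defa30 had medians of 19.9, 36.4, 26.2 and 27.0 and Itln1 of 13.3, 5.56, 2.86 and 9.68. Lyz1 came to 83.1, 20.7, 68.2 and 21.4, high in the 2 mice with few such barcodes, with medians of 57.8, 18.2, 40.0 and 18.3. In each of those 2 mice the value rested on 1 barcode. It held 128 of the 133 UMIs of Lyz1 in Control 1 and 446 of the 460 in DKO 1. The barcodes of Control 1 were at 15.6 and 100, and those of DKO 1 ran from 17.1 to 72.1. Ang4 came to 8.75, 1.62, 0.593 and 6.80 and Defa17 to 2.50, 1.72, 0.148 and 2.74.

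Defa22 and Defa21, which are no members, were at 37.5 and 36.2 per 100 of Defa24 in DKO 2 and at 6.13 and 5.34 in Control 2. Control 1, at 19.4 and 12.5, and DKO 1, at 13.4 and 15.7, lay between them in these summed counts. In the single barcodes of DKO 2 Defa22 ran from 5.41 to 95.8 per 100 with a median of 38.2, and in those of Control 2 from 0 to 25.8 with a median of 13.5. Its medians in Control 1 and DKO 1 were 16.8 and 13.4, so by median DKO 1 was not above Control 2. The medians of Defa21 kept the order of the sums, at 11.3, 7.69, 15.3 and 36.4 in Control 1, Control 2, DKO 1 and DKO 2. Defa35 went the other way, at 2.50, 2.50, 9.05 and 0.379 per 100. In DKO 2 barcodes up to and over a mitochondrial share of 50% had 28.5 and 26.6 of Defa30, 21.8 and 19.5 of Lyz1, 37.7 and 36.2 of Defa22 and 5.31 and 2.96 of Mptx2. In Control 2 they had 35.2 and 36.6 of Defa30 and 20.6 and 21.3 of Lyz1, but 11.6 and 6.01 of Itln1, 4.38 and 16.7 of Defa22 and 4.55 and 10.1 of Defa21.

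**Figure D5:**
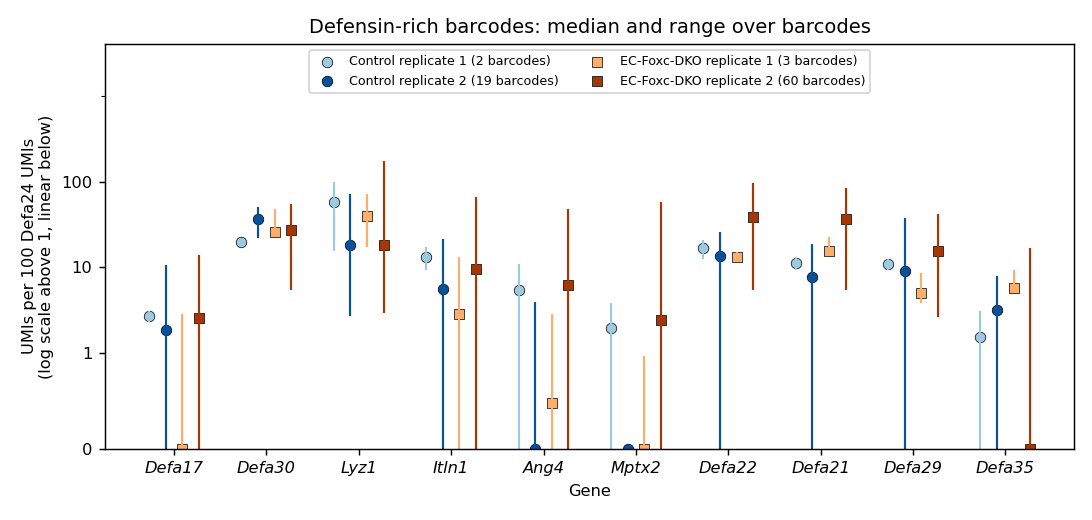
UMIs of 10 genes per 100 UMIs of Defa24 in the 84 barcodes rich in α-defensins, on an axis that is logarithmic above 1 and linear below; points are the median and lines the range over the barcodes of 1 mouse. Defa30 lies close together in all mice, while Mptx2 is 0 in all 19 barcodes of Control 2 and Defa22 and Defa21 are higher in DKO 2.

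Mptx2 was the member with the clearest difference between single mice. Over whole libraries it had 36 of 1818, 0 of 13561, 9 of 5146 and 921 of 41480 UMIs of the 8 genes in Control 1, Control 2, DKO 1 and DKO 2. That is 1.98% (95% exact interval 1.39% to 2.73%), 0% (0% to 0.0272%), 0.175% (0.0800% to 0.332%) and 2.22% (2.08% to 2.37%). In DKO 1, 1874 of the 5146 UMIs were Defa24 in goblet cells that held 0 UMIs of Mptx2, which lowers its share there. In the 84 barcodes rich in α-defensins Mptx2 came to 3.125, 0, 0.890 and 4.97 per 100 of Defa24. The intervals of Control 1 and DKO 2 overlapped, and those of Control 2 and DKO 1 lay below them. The difference thus ran between mice within each genotype, and the intervals cover counting error only. In Control 1 a single cell held 26 of the 36 UMIs of Mptx2, so its overlap with DKO 2 leaned on that cell. In Control 2 a single cell held 6232 of the 13561 UMIs of the 8 genes. Mptx1 had 3, 0, 15 and 26 UMIs in whole libraries.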

How the data were processed

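Cells of the distal jejunum were profiled by 10x Genomics 3′ single-cell RNA sequencing, with 1 library from each of 2 Control and 2 EC-Foxc-DKO mice sampled separately. The deposited values are UMI counts per gene and barcode, not normalized, which the authors made with Cell Ranger (4.0.0 in the submitters' processing notes) on mm10 with the Cre sequence added, after removal of empty droplets. A joined table of all cells was used for its list of 18407 genes only, over which the mitochondrial share of a barcode was computed.

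Barcodes with 10% or less mitochondrial counts were kept. Counts were scaled to 10000 per cell, and cells were clustered with scanpy 1.11.5 and leidenalg 0.10.2 (15 principal components, 15 neighbours, resolution 0.5), and clusters were named from the marker genes of the study. Doublets were kept, since Scrublet's automatic threshold marked 13 of 5615 cells. In an alternative the 292 cells with the highest scores were removed, at a rate of 0.8% per 1000 barcodes. UMI counts were summed per mouse and tested with edgeR 4.0.16 (filterByExpr, TMM, quasi-likelihood, R 4.3.3), and DESeq2 1.42.0 was an alternative. The code for the tests was checked on simulated data. The members and the gene lists were chosen with earlier results of these data known. All 8 members are named. Of each list at most the 5 genes with the highest mean level and the called genes are named, and for each member the 3 genes most alike among those at a mean of 10 CPM or more. A gene outside this rule, such as Fkbp11, was named after its values were seen. Lyz2, Defa21, Defa22, Defa35, Cd24a and Retnlb fall within the rule but were also named after their values were seen.

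Total depth per library set the precision. Intervals are exact Clopper-Pearson intervals at 95%, and the limit for a count of 0 is 3 counts. Alternatives were other settings for the mitochondrial limit, clustering, gene filter, test, replicate block and left-out mice. The mitochondrial share over all features, crossed replicate numbers, the fit without cells rich in α-defensins and the levels by cell type without likely doublets were added after seeing the data. Sequences came from the GRCm38 genome and annotation and from RefSeq promoters.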

Additional observations from a re-analysis of the deposited data

How the results depend on the processing

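With 2 mice a group and most UMIs of the 8 genes in few cells the precision was low. Where a mouse is left out the lone mouse of its group is assumed to vary like the others. Some of these fits called members, but for this reason only their log2 changes are given. The cause of the changes was not tested. With no filter on low counts a gene with UMIs in only 1 mouse is tested too. Then 1 of 8 members was called in Crypt cells and 3 of 7 in Bottom enterocytes, with 103 of 15465 and 146 of 15353 genes called. In all epithelial cells 4 of 8 were called with 85 of 18984 genes, and in non-epithelial cells 3 of 7 with 317 of 19177. In the interaction 3 of 8 were called with 69 of 21354 genes. The main setting called 0 in each of these. DESeq2 called 0 members in every comparison. Leaving out each mouse in turn gave median log2 changes of the members tested from −6.42 to 2.70 in Goblet and Paneth cells. In the interaction these medians ran from −4.27 to −2.30. In Bottom enterocytes they ran from 1.16 to 4.12, and without DKO 2 no member was tested there.

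In Goblet and Paneth cells the log2 change ran with mice left out from −6.76 to 3.88 for Defa17, −3.24 to 2.96 for Defa24, −10.25 to 3.17 for Defa30, −5.42 to 0.91 for Lyz1, −6.42 to 1.07 for Itln1, −6.32 to 2.43 for Ang4 and −7.17 to 9.67 for Mptx2. In non-epithelial cells it ran from −0.89 to 2.01 for Lyz1 and −1.14 to 4.29 for Itln1, and in the interaction from −4.31 to 0.25 for Defa24, −5.09 to 1.61 for Lyz1 and −5.33 to 1.85 for Mptx2. Without the cells rich in α-defensins Defa24 changed by 2.21 and Mptx2 by −1.52. At a mitochondrial limit of 20% the change of Ang4 was 0.32 and the interaction of Lyz1 0.12, the cells rich in the 8 genes numbered 23, and Defa24 in Control 2 was at 28995 CPM. With no limit they numbered 89.

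Replicate numbers were shared by the groups. Deviations of same-numbered mice correlated at 0.63 in Goblet and Paneth cells, 0.32 in all epithelial cells, −0.06 in non-epithelial cells, −0.39 in Crypt cells, −0.27 in Bottom enterocytes and −0.47 in all kept cells. The labels name no shared litter, batch or day, and with 2 mice a group the numbers were not taken as pairs. With a replicate block 1 of 8 members, Defa30, was called in Goblet and Paneth cells, among 5 of 5358 genes, and Mptx2 changed by −0.26. With crossed numbers as the block 0 members were called in Crypt cells, Bottom enterocytes and all kept cells, among 0, 95 and 0 genes. Over all alternatives 92 values that answer a comparison kept to their main value and 13 did not, and for single genes 364 did, while 16 gained a call, 17 changed sign and 7 moved.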
